A study of Homo sapiens with 15 samples.

Results

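Among the genes measured across the conversion of H9 human embryonic stem cells into definitive endoderm, 65 of 23346 gene symbols were high in undifferentiated cells, low on the first 2 days of differentiation and high again on day 4. Members were found by a rule on counts per 1000000 (CPM, a gene's count scaled to the same total in every library). The mean had to be at least 3 CPM on day 0 and on day 4. The smaller of those means had to be at least 2 times the larger of the day 1 and day 2 means, and every day 0 and day 4 library had to lie above every day 1 and day 2 library. Levels on days 0, 1, 2 and 4 therefore chose the members and are described here with no test. The order of day 2 against day 1 and that of day 4 against day 0 were not set by the rule, and were tested. Day 3 was not used either, but its differences from day 2 and day 4, days chosen low and high, are given as descriptions. For the tested orders the rule still capped both low days, put a floor under both high days and separated their libraries. Their p-values take no account of that choice, and shares of called members beside all genes are descriptions.

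H9 is an established human embryonic stem cell line that grows as a flat epithelium in the defined medium E8. Per the labels, day 0 cells were undifferentiated cells grown in E8. The cells of days 1 to 4 were kept in Advanced RPMI 1640, with activin A (a ligand of the Nodal pathway) and CHIR99021 (which blocks the kinase GSK3 and thereby turns on Wnt signalling) for the first 24 hours and activin A alone from then on. Each of the 5 days had 3 bulk polyA RNA libraries, numbered 1, 2 and 4, of a single cell line. The labels do not say whether the numbers are separate cultures. The p-values hold for the scatter among these libraries, and that scatter may be technical. No untreated cultures of days 1 to 4 were analysed here, so treatment, medium and time in culture cannot be told apart.

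As background, stem cells that are pushed towards endoderm pass through a state like the primitive streak of the embryo, in which an epithelium loosens its junctions and cells become migratory. Brachyury and EOMES mark that state, and SOX17, FOXA2 and CXCR4 mark the endoderm that follows. Endoderm is again an epithelium, so genes of cell contact, polarity and secretion can be used on both sides of that step, while the pluripotency network is switched off.

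The libraries held 54723184 to 145857940 counts, so a count of 3 would equal 0.0206 to 0.0548 CPM. No count was odd, so the smallest count above 0 was 2. The marker sums followed the labels. The 10 markers of undifferentiated cells summed to 4496 to 5361 CPM on day 0 and 677 to 1347 CPM on day 4. Of that day 4 sum TDGF1 was 231 to 531 CPM. The 6 primitive streak markers summed to 2183 to 2669 CPM on day 1. The 8 definitive endoderm markers summed to 63.2 to 71.4 CPM on day 0 and 4684 to 6416 CPM on day 2. Most of that day 2 sum was CER1, at 3562 to 5326 CPM. SOX17, FOXA2, GATA4, CXCR4 and KIT had higher means on day 4 than on day 2, while CER1, GATA6 and HHEX had lower ones. Libraries of days 3 and 4 stood apart by replicate number. The definitive endoderm sum was 1543 and 1451 CPM in replicate 1 on days 3 and 4, against 6257 and 5318 in replicate 2 and 3256 and 3792 in replicate 4. CER1, a secreted Nodal antagonist, carried most of that gap, at 482 and 413 CPM in replicate 1, 4546 and 2737 in replicate 2 and 1773 and 2023 in replicate 4. Without CER1 the sum was 1061, 1711 and 1482 CPM in replicates 1, 2 and 4 on day 3 and 1038, 2582 and 1769 on day 4. FOXA2 was highest in replicate 1 on day 3, at 254 CPM against 118 and 45.8. The trophoblast and amnion sum, nearly all of it GATA3, was highest in replicate 1 on both days, at 65.9 and 107.7 CPM. Replicate 1 also held the highest mesoderm sum on both days, 464 and 257 CPM, nearly all of it HAND1 and PDGFRA. Other mesoderm markers did not follow. FOXF1 was lowest in replicate 1 on both days, at 6.44 CPM against 10.4 and 11.8 and at 4.88 against 8.72 and 8.36. TBX6 was highest in replicate 4 on day 3 and in replicate 2 on day 4. Neural ectoderm markers summed to 79.8 and 168.6 CPM in replicate 2 on days 3 and 4, against 16.9 and 11.2 in replicate 1 and 46.7 and 53.4 in replicate 4. In bulk RNA, more cells of a type and more RNA per cell cannot be told apart.

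The members' start sites were looked up in RefSeq (GRCh38.p14), which gave a promoter of 300 bases, from 250 before to 50 after the start, for 45 of 65. The letters CACCTG (read on either strand, so also CAGGTG), an E-box bound by the SNAI and ZEB repressors, occurred in 17 of these 45 promoters (37.8%), against 19% of the promoters of all genes tested and 20.6% of all 27305 promoters in the table. Since fewer than 80% of the members had a promoter there, that comparison is void and the share is a description. AACCGGTT (GRHL factors), CTTTGAT (TCF and LEF factors) and ACAATGG (SOX factors) occurred in 0 of the 45. TGTTTAC (FOXA factors) occurred in 1, that of PPP2R2B. These letters were rare in the promoters of all genes tested too, at 0.148%, 1.49%, 1.98% and 2.26% in the same order. With 45 promoters such low counts do not set the members apart from other genes. Of the 15 members called higher on day 3 than on day 2 in the fit described further on, 11 had a promoter in the table and 5 of those held the E-box. They are shown 5′ to 3′ on the gene's strand, with the E-box in capitals.
A2ML1, chr12:8822371-8822670, plus strand: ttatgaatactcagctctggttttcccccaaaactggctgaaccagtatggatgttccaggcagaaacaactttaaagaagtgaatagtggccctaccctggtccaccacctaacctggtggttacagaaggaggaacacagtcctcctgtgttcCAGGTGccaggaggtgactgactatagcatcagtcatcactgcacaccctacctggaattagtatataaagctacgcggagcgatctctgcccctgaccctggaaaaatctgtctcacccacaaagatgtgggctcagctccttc
CLDN3, chr7:73770221-73770520, minus strand: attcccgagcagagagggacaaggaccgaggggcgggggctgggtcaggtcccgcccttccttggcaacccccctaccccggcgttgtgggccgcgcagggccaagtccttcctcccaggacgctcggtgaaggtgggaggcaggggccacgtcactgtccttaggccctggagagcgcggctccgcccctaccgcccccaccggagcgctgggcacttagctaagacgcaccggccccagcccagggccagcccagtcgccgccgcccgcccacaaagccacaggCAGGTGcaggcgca
FAM65B, chr6:24935911-24936210, minus strand: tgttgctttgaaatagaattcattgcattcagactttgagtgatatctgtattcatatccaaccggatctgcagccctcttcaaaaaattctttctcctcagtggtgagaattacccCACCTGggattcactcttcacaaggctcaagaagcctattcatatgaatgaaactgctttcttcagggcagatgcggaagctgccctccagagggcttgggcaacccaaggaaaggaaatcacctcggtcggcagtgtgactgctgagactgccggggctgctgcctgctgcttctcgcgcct
GCNT2, chr6:10521101-10521400, plus strand: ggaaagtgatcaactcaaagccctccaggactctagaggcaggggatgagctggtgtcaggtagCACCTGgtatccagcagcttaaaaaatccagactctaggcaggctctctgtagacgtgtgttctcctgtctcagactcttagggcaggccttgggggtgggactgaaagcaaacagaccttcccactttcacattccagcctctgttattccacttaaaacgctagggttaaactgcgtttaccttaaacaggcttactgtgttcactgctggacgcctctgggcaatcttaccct
SLC27A2, chr15:50181946-50182245, plus strand: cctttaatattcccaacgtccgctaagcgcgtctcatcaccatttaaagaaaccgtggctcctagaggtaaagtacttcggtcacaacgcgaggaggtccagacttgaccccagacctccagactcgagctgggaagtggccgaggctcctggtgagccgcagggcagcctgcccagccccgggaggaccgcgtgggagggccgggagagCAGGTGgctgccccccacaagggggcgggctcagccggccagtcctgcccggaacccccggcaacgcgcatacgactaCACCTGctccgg
The E-box began -95 from the start site in A2ML1, +37 in CLDN3, -133 in FAM65B and -186 in GCNT2, where the base before the start is -1. SLC27A2 held 2, at -40 and +39. A match of 6 letters is not a binding site, and no binding data were analysed here.

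The members differed widely in level and in function. The ratio the rule used had a median of 2.90 and ran from 2.02 to 48.0. Just inside the threshold were C1orf88 and PNMAL1 at 2.02 and CACNG8 at 2.04, and just outside were GRAMD3 at 1.97, FAM84A at 1.96 and COL9A1 at 1.95. Of the 10670 symbols with at least 3 CPM on both outer days, 106 passed the fold criterion and 107 the separation of libraries. In 37 members the smaller of the day 0 and day 4 means was 3 to 10 CPM, in 13 it was 10 to 30, in 10 it was 30 to 100 and in 5 it was above 100 CPM. Their low state was seldom silence on both days: the larger of the day 1 and day 2 means was under 1 CPM in 7 members. Others had a mean under 1 CPM on 1 of those days only, such as SOX21 at 0.109 CPM on day 1 and A2ML1 at 0.543 CPM on day 2. All 65 passed the filter on low counts before the tests. By annotation 64 were protein-coding and FLJ22184 was unmatched. Of the 30 gene lists written for this tissue, 10 held a member and 53 members were in none. The heat map of the members shows the block of low values on days 1 and 2 and the wide scatter of days 3 and 4.

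**Figure D1:**
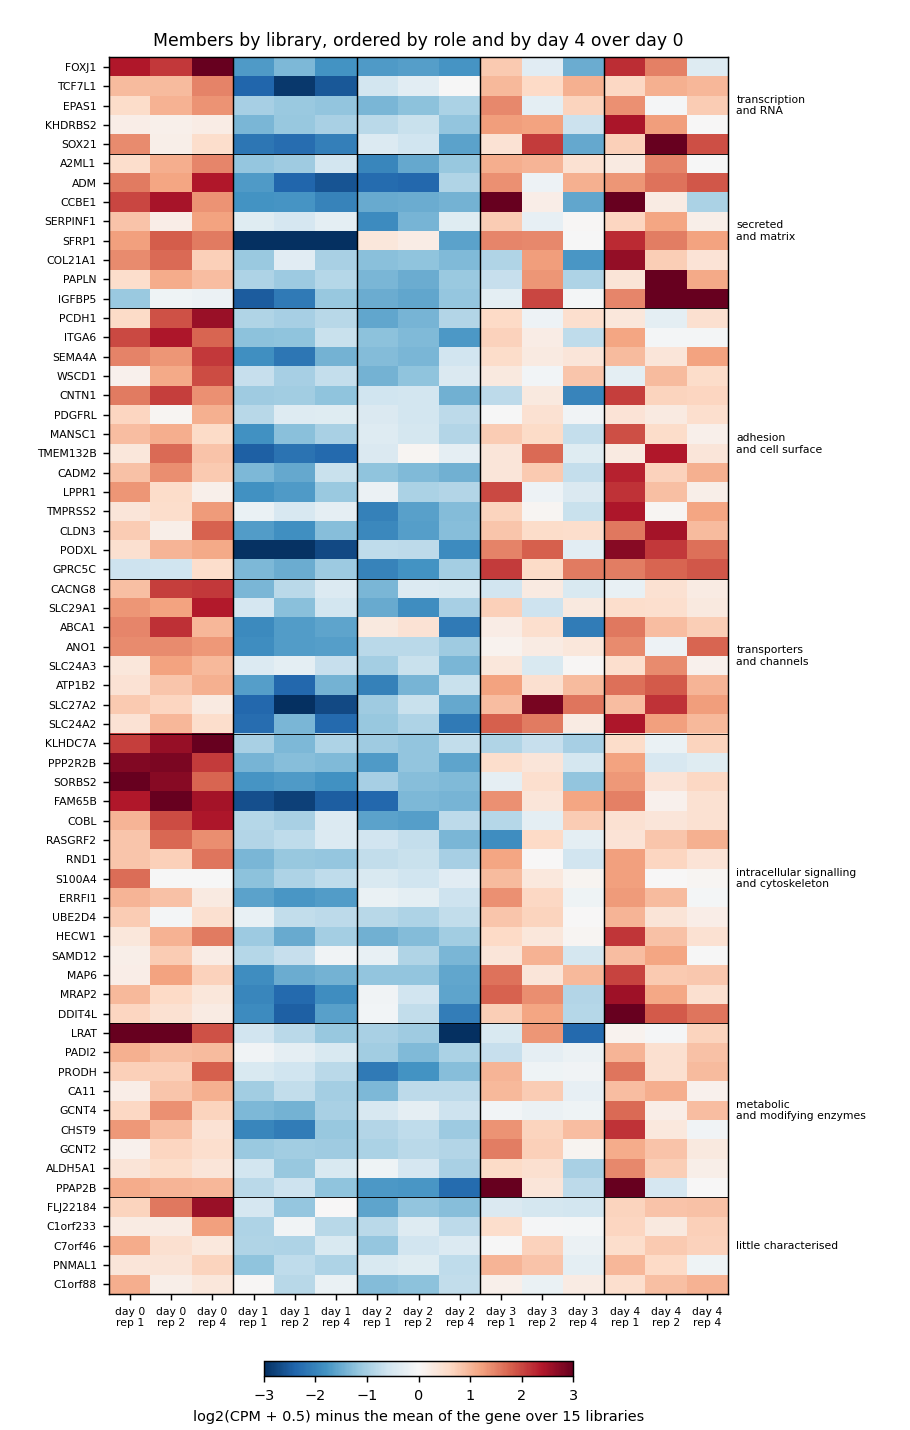
Level of 64 of the 65 members (rows, grouped by role) in each of the 15 libraries (columns, by day and replicate number), as log2(CPM + 0.5) minus the mean of that gene over the libraries. Blue is below and red above the gene's mean, and the colour scale ends at 3 on either side. Days 1 and 2 are mostly blue, as the rule required. Some genes, such as TMEM132B and TCF7L1, are near their mean on day 2, as are SFRP1 and ABCA1 in day 2 replicates 1 and 2. Day 3 replicate 4 is paler than the other day 3 libraries and several genes are deep red in a single day 4 library.

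Among the transcription factors and RNA-binding proteins, FOXJ1 had the largest ratio, 48.0. FOXJ1, which switches on the genes of motile cilia, was at 8.93, 7.24 and 15.2 CPM on day 0. It was at 0.0553, 0.202 and 0.0199 CPM on day 1 and at 0.052, 0.0744 and 0.0282 CPM on day 2, where the libraries held 2 to 14 counts. The late libraries differed, with 2.58 CPM in replicate 1, 0.915 in replicate 2 and 0.138 in replicate 4 on day 3 and 7.84 CPM in replicate 1, 4.6 in replicate 2 and 0.876 in replicate 4 on day 4. All 3 day 4 libraries lay above every low library, but replicates 2 and 4 stayed below every day 0 library. TCF7L1, a TCF family factor that mainly represses Wnt target genes, was at 104, 105 and 152 CPM on day 0, 9.9, 6.87 and 8.89 CPM on day 1, 36.4, 42.9 and 53.8 CPM on day 2, 107, 81.6 and 113 CPM on day 3 and 82.7, 114 and 108 CPM on day 4. Its libraries lay close together on each day and it was lowest on day 1. EPAS1, the hypoxia-inducible factor HIF-2α, was at 2.82, 4.15 and 5.24 CPM on day 0, 0.636, 0.548 and 0.496 CPM on day 1, 0.381, 0.471 and 0.677 CPM on day 2, 5.69, 1.34 and 3.14 CPM on day 3 and 5.37, 1.71 and 3.36 CPM on day 4. Day 3 and day 4 replicate 2 was the lowest EPAS1 library of its day both times. SOX21, a SOX factor of neural progenitors, was at 6.85, 2.58 and 3.48 CPM on day 0, 0.111, 0.0577 and 0.159 CPM on day 1, 1.58, 1.32 and 0.395 CPM on day 2, 3.21 CPM in replicate 1, 11.3 in replicate 2 and 0.438 in replicate 4 on day 3 and 3.98 CPM in replicate 1, 27.6 in replicate 2 and 9.93 in replicate 4 on day 4. It was highest in replicate 2 on both late days, as were the neural factors PAX6, at 29.8 CPM on day 3 and 61.7 on day 4, and LHX2, at 34.9 and 75.4 CPM. PAX6 was at 1.23 and 2.43 CPM and LHX2 at 3.82 and 2.16 CPM in replicate 1 of those days, and at 6.09 and 18.1 CPM and 29.8 and 23.3 CPM in replicate 4. On day 3 replicate 4 thus held LHX2 near the level of replicate 2 and the lowest SOX21. The other neural ectoderm markers did not follow replicate 2 on both days: POU3F1 was lowest there on day 3, at 2.50 CPM against 6.84 and 9.59, HESX1 was highest in replicate 1 on both days, and SOX1 and SIX3 stayed at or under 0.24 CPM. The part of these neural markers in the SOX21 profile was not tested.

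Secreted and matrix proteins made up 8 members. SFRP1, a soluble Wnt antagonist, was at 979, 1491 and 1229 CPM on day 0, 26.6, 31.4 and 31.2 CPM on day 1, 535, 491 and 137 CPM on day 2, 1155, 1132 and 416 CPM on day 3 and 1983, 1217 and 967 CPM on day 4. The 3 day 1 libraries were nearly equal, and day 2 already lay above all of them. ADM, the vasoactive peptide adrenomedullin and a target of hypoxia signalling, was at 83.7, 64.7 and 151 CPM on day 0, 8.27, 5.02 and 4.27 CPM on day 1, 5.28, 5.11 and 14.7 CPM on day 2, 73.3, 25.2 and 59.5 CPM on day 3 and 71.6, 88 and 104 CPM on day 4. Both low days stayed under every other library. CCBE1, a secreted protein of lymphatic vessel growth, was at 18.3, 25.7 and 11.4 CPM on day 0, 0.857, 0.895 and 0.675 CPM on day 1 and 1.16, 1.19 and 1.27 CPM on day 2, and on the late days it was by far highest in replicate 1, at 38.4 CPM in replicate 1, 4.91 in replicate 2 and 1.11 in replicate 4 on day 3 and 41.8 CPM in replicate 1, 5.13 in replicate 2 and 1.93 in replicate 4 on day 4. IGFBP5, which binds insulin-like growth factors, showed the same uneven late levels with another library on top, at 1.79, 4.02 and 3.9 CPM on day 0, 0.387, 0.635 and 1.75 CPM on day 1, 1.28, 1.19 and 1.72 CPM on day 2, 3.55 CPM in replicate 1, 19.5 in replicate 2 and 4.24 in replicate 4 on day 3 and 13.1 CPM in replicate 1, 192 in replicate 2 and 39.2 in replicate 4 on day 4. PAPLN, the matrix protein papilin, was at 6.43 CPM in replicate 1, 42.5 in replicate 2 and 11.1 in replicate 4 on day 4, again highest in replicate 2. COL21A1, a fibril-associated collagen chain, was at 5.49, 6.73 and 3.17 CPM on day 0 and 13.3 CPM in replicate 1, 3.2 in replicate 2 and 2.48 in replicate 4 on day 4. A2ML1, a protease inhibitor, was at 0.26, 0.521 and 0.847 CPM on day 2 and 5.85, 5.49 and 3.57 CPM on day 3, and those groups did not overlap.

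Adhesion and cell surface proteins were 14 members. PODXL, podocalyxin, a sialomucin of the apical membrane that is abundant on pluripotent cells, was at 1685, 2476 and 2670.2 CPM on day 0, 155, 155 and 185 CPM on day 1, 714, 702 and 327 CPM on day 2, 3378, 4172 and 967 CPM on day 3 and 8007, 5319 and 3804 CPM on day 4. It stepped up at every day after day 1 in each replicate number, and every day 4 library exceeded every day 0 library. ITGA6, the laminin-binding integrin α6, was at 424, 579 and 359 CPM on day 0, 45.3, 45.5 and 66.7 CPM on day 1, 45.1, 42.4 and 31.8 CPM on day 2, 173, 124 and 62.4 CPM on day 3 and 244, 103 and 103 CPM on day 4. All 3 day 4 libraries were below all 3 day 0 libraries. CLDN3, a claudin of tight junctions, was at 3.07, 1.9 and 6.75 CPM on day 0, 0.166, 0.0866 and 0.377 CPM on day 1, 0.052, 0.174 and 0.367 CPM on day 2, 3.29, 2.59 and 2.54 CPM on day 3 and 5.84, 11.4 and 3.61 CPM on day 4. Its late libraries and its day 0 libraries overlapped. PCDH1, a protocadherin of cell contacts, was at 121, 305 and 489 CPM on day 0, 43.3, 40.1 and 45.3 CPM on day 1, 27.3, 30.1 and 43.4 CPM on day 2, 123, 72.5 and 114 CPM on day 3 and 102, 65.6 and 113 CPM on day 4. CNTN1, an adhesion molecule of neurons, was at 9.75, 14.3 and 8.59 CPM on day 0, 1.8, 1.89 and 0.79 CPM on day 2, 1.55, 3.78 and 0.392 CPM on day 3 and 14.4, 5.05 and 5 CPM on day 4. On day 3 CNTN1 was above every low library in replicate 2 and below every low library in replicate 4. CADM2, an immunoglobulin-type adhesion molecule, was at 8.39, 12.2 and 7.78 CPM on day 0 and 23.4 CPM in replicate 1, 7.35 in replicate 2 and 9.6 in replicate 4 on day 4. Its day 4 replicate 1 was above every other library, and replicate 2 was below every day 0 library. TMPRSS2, a serine protease of epithelial surfaces, was at 14, 16 and 26.9 CPM on day 0, 9.4, 7.65 and 8.87 CPM on day 1, 2.3, 3.15 and 4.15 CPM on day 2 and 60.4 CPM in replicate 1, 11.3 in replicate 2 and 25.4 in replicate 4 on day 4. SEMA4A, a membrane semaphorin, was at 13.1, 11.7 and 20.7 CPM on day 0, 0.857, 0.577 and 1.33 CPM on day 1 and 8.84, 5.74 and 10.8 CPM on day 4. Every day 4 library of SEMA4A lay below every day 0 library. TMEM132B, a membrane protein of little known role, was at 103, 265 and 148 CPM on day 0, 14.4, 17 and 15.7 CPM on day 1, 59.7, 84.4 and 66.6 CPM on day 2 and 97.5 CPM in replicate 1, 428 in replicate 2 and 105 in replicate 4 on day 4. Only day 4 replicate 2 exceeded every day 0 library.

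**Figure D2:**
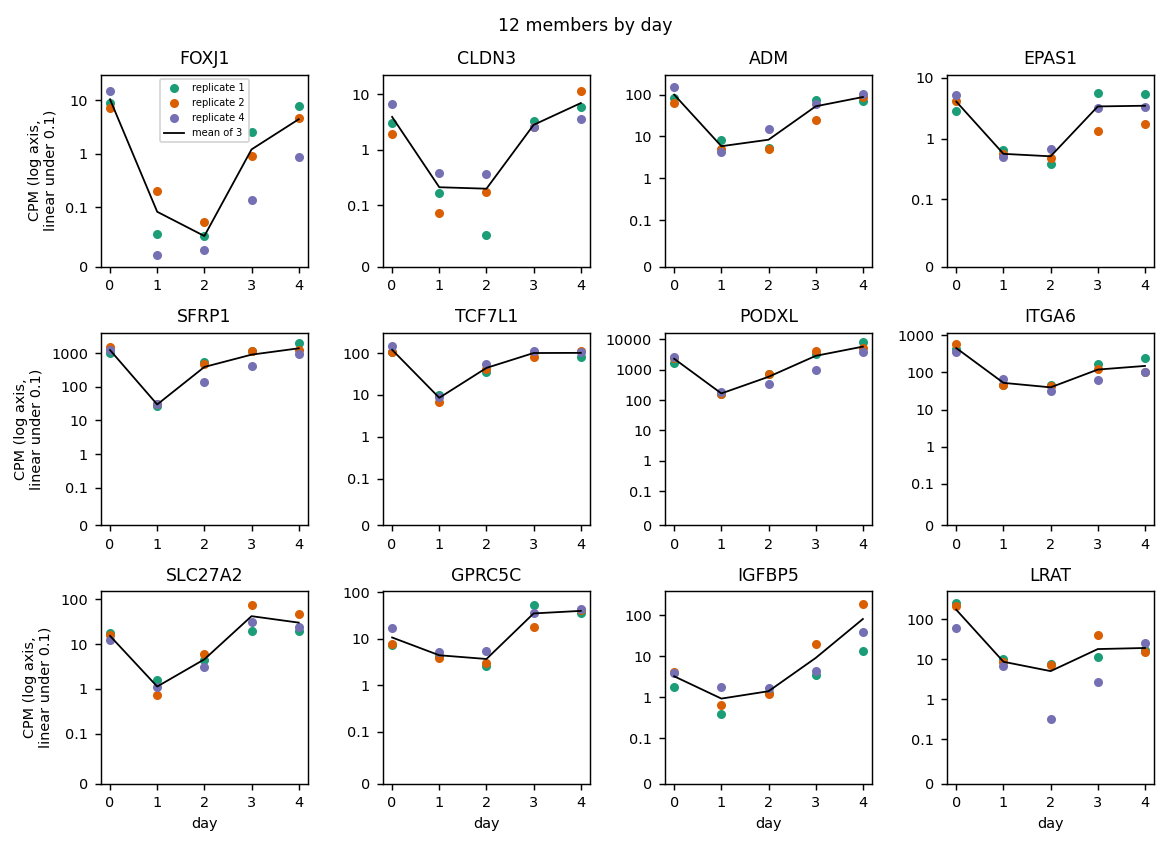
CPM by day for 12 members, on an axis that is logarithmic above 0.1 CPM and linear below it. Points are libraries, coloured by replicate number, and lines join the means of 3. TCF7L1 is tight on each day, while FOXJ1 spans 0.876 to 7.84 CPM and IGFBP5 13.1 to 192 CPM on day 4.

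Transporters and channels were 9 members. SLC27A2, which activates and takes up very long-chain fatty acids, was at 17.7, 15.9 and 12.1 CPM on day 0, 1.55, 0.722 and 1.11 CPM on day 1, 4.52, 6.08 and 3.11 CPM on day 2, 19.5, 74.5 and 31.6 CPM on day 3 and 19.4, 46.3 and 24.5 CPM on day 4. On day 3 every library was above every day 0 library. SLC24A2, a potassium-dependent sodium and calcium exchanger, was at 1.45, 1.76 and 0.48 CPM on day 2, 14.3, 12.1 and 4.61 CPM on day 3 and 22.4, 9.61 and 7.89 CPM on day 4. The late libraries of SLC24A2 were highest in replicate 1 on both days. ANO1, a calcium-activated chloride channel, was at 7.84, 7.94 and 7.28 CPM on day 0, 0.36, 0.491 and 0.496 CPM on day 1, 1.3, 1.29 and 0.988 CPM on day 2, 2.89, 3.23 and 3.51 CPM on day 3 and 7.88, 2.34 and 10.1 CPM on day 4. CACNG8, an auxiliary subunit of glutamate receptors, was at 7.02, 16.6 and 17.2 CPM on day 0 and 2.96, 5.07 and 4.27 CPM on day 4, with no overlap.

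Proteins of intracellular signalling and the cytoskeleton were the largest role with 15 members. FAM65B (now RIPOR2), an inhibitor of the small GTPase RhoA, was at 80.5, 128 and 85 CPM on day 0, 1.96, 1.67 and 2.26 CPM on day 1, 2.49, 5.53 and 5.25 CPM on day 2, 38.8, 19.2 and 33.9 CPM on day 3 and 43.3, 16.2 and 20.5 CPM on day 4. SORBS2, an adaptor of the actin cytoskeleton, was at 17.8, 14.1 and 6.81 CPM on day 0, 0.138, 0.173 and 0.119 CPM on day 1, 0.589, 0.397 and 0.367 CPM on day 2, 1.3, 2.62 and 0.461 CPM on day 3 and 4.86, 2.38 and 2.85 CPM on day 4. On day 4 all libraries of both genes were below every day 0 library. MAP6, which stabilises microtubules, was at 0.111, 0.289 and 0.337 CPM on day 1, 0.485, 0.471 and 0.254 CPM on day 2, 6.39, 2.38 and 3.87 CPM on day 3 and 8.53, 3.32 and 3.4 CPM on day 4. For MAP6 every day 3 library exceeded every low library. ERRFI1, a feedback inhibitor of the EGF receptor, was at 110.4, 100.3 and 65.3 CPM on day 0, 17.6, 16 and 16.7 CPM on day 1, 47.3, 44.3 and 35.2 CPM on day 2, 141, 83.4 and 49.5 CPM on day 3 and 132, 105 and 52.5 CPM on day 4. For ERRFI1 day 2 lay above day 1 in every library, and replicate 4 was the lowest library on days 3 and 4. HECW1, a ubiquitin ligase, was at 4.62, 7.86 and 11.5 CPM on day 0 and 17.3 CPM in replicate 1, 6.9 in replicate 2 and 5 in replicate 4 on day 4. S100A4, a calcium-binding protein often used as a mesenchymal marker, had 10.7, 3.01 and 2.97 CPM on day 0 and 7.82 CPM in replicate 1, 3.08 in replicate 2 and 3.14 in replicate 4 on day 4, so replicate 1 was the high library on both days. PPP2R2B, a regulatory subunit of the phosphatase PP2A, was at 92.8, 96.9 and 58.2 CPM on day 0 and 31.1, 9.35 and 10.1 CPM on day 4. PPP2R2B was lower on day 4 than in any day 0 library. KLHDC7A, a kelch-domain protein of little known role, was at 10.9, 16.1 and 22.9 CPM on day 0, 0.959, 1.19 and 0.853 CPM on day 3 and 3.51, 1.87 and 3.83 CPM on day 4. On day 3 KLHDC7A lay within or just above the range of its low libraries, 0.577 to 1.13 CPM.

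Metabolic and modifying enzymes were 9 members. LRAT, which stores retinol as retinyl ester, was at 245, 208 and 59.5 CPM on day 0, 10.3, 8.63 and 6.77 CPM on day 1, 7.62 CPM in replicate 1, 7.07 in replicate 2 and 0.311 in replicate 4 on day 2, 11.2, 39.5 and 2.67 CPM on day 3 and 16.7, 15.1 and 25 CPM on day 4. Its libraries scattered on days 0, 2 and 3, and its day 4 libraries were closer together. In the role of little characterised genes, C1orf88 (PIFO), a protein of ciliary membranes, was at 7.29, 3.64 and 4.08 CPM on day 0, 3.24, 1.53 and 2.68 CPM on day 1, 0.97, 1.04 and 1.69 CPM on day 2, 3.52, 2.65 and 3.8 CPM on day 3 and 4.69, 6.25 and 7.01 CPM on day 4. The lowest day 0 library was only just above the highest day 1 library.

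The markers of undifferentiated cells did not share this profile. On day 4, 9 of the 10 were under 25% of their day 0 mean, and TDGF1, a Nodal co-receptor that endoderm also uses, was at 104%. FOXD3 was the only marker whose 3 day 4 libraries all exceeded every day 1 and day 2 library, at a day 4 mean of 1.23 ± 0.602 CPM against 43.5 ± 15 CPM on day 0 (SD, n = 3). SOX2 was at 6.33, 3.83 and 15.2 CPM in replicates 1, 2 and 4 on day 4, and POU5F1 at 17.5, 28.5 and 123 CPM, so replicate 4 was the high library for both. Their day 4 means were 4.45% and 12.5% of day 0 with all libraries, and 2.68% and 5.13% without that one. Among the members the day 4 mean was 0.111 to 25.2 times the day 0 mean, with a median of 1.02, and in 34 of 65 it was within 1.5 times. The members' day 4 levels thus stood beside stem cell marker levels far below those of day 0, TDGF1 apart. Members were chosen to be high on day 4 as on day 0, so their contrast with these markers follows in part from the choice.

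**Figure D3:**
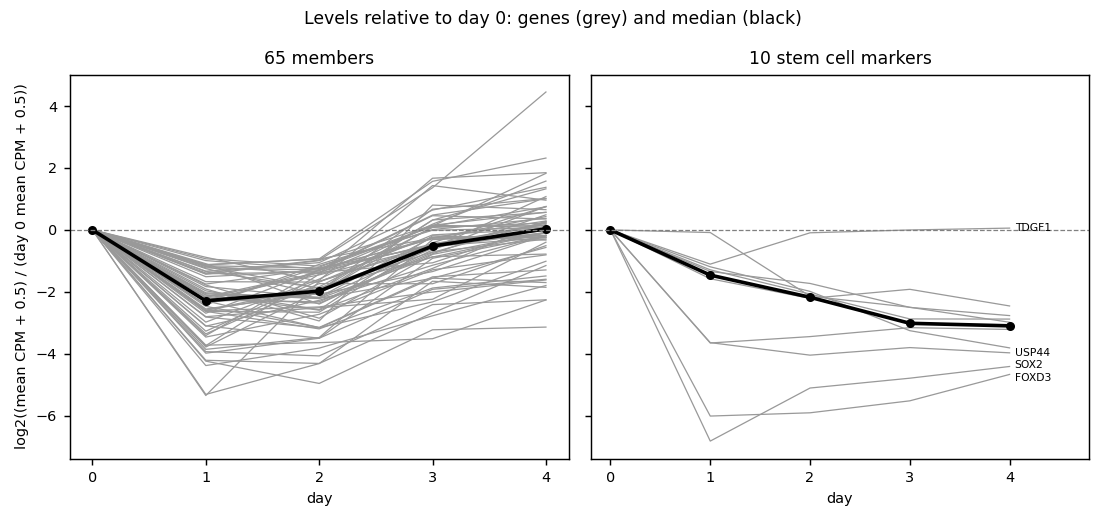
Log2 of the mean CPM of each day over the day 0 mean, both plus 0.5, for the 65 members (left) and 10 markers of undifferentiated cells (right). Grey lines are genes and the black line is their median. The members, chosen to be high on days 0 and 4, have a median back near 0 on day 4. Of the 10 markers, 9 are under 25% of day 0 and TDGF1 is at 104%.

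To see the profile in libraries that had no part in choosing the genes, the rule was applied to 2 of the 3 replicate numbers and the libraries of the remaining number were read. Without replicate 1 the rule found 73 genes, and in 59 of them (80.8%) the day 0 and day 4 libraries of replicate 1 were both above its day 1 and day 2 libraries. The same order held for 10.2% of genes with the same minimum level. Without replicate 2 it found 79 genes, of which 65 (82.3%) kept the order in replicate 2, against 7.32%. Without replicate 4 it found 100 genes, of which 82 (82%) kept it in replicate 4, against 11.8%. A difference of 2-fold or more in the held-out number was met by 38 genes (52.1%), 39 (49.4%) and 43 (43%), against 1.04%, 0.791% and 0.786% of genes with the same minimum level. These sets shared 47, 54 and 55 genes with the 65 members, so they are not the members themselves. The labels do not say whether the numbers are separate cultures. A held-out library may thus not be independent, and these shares are a description, not a test.

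Day 3 was not used by the rule. On the log2(CPM + 0.5) scale, with 0% set at the mean of days 1 and 2 and 100% at the mean of days 0 and 4, the members' day 3 means had a median position of 67.8% (quartiles 52.4% and 89.7%). The position was under 50% in 15 members, from 50% to 100% in 40 and over 100% in 10. CNTN1 at 7.02% and KLHDC7A at 6.93% had hardly left the low state, while GPRC5C, an orphan receptor, was at 130% and SLC27A2 at 127%. The libraries differed: the median position was 85.0% in replicate 1, 75.8% in replicate 2 and 41.8% in replicate 4. All 3 day 3 libraries lay above every day 1 and day 2 library in 35 of 65 members, against 5.76% of the 10670 genes at the same minimum level. Taken singly, replicate 1 lay above them in 56 members (background 23.7%), replicate 2 in 60 (19.8%) and replicate 4 in 40 (21.6%). Day 3 replicate 4 also stood apart in its share of counts from ribosomal protein genes, 5.88% against 2.07% and 2.31% in replicates 1 and 2, and in the share taken by its 20 highest genes, 11.7% against 8.29% and 9.14%. The ribosomal share also varied within other days, from 2.07% in replicate 1 to 5.15% in replicate 4 on day 2. On day 4 it ran from 2.07% in replicate 1 to 4.60% in replicate 4. In day 3 replicate 4 the markers of undifferentiated cells summed to 1449 CPM, against 661 and 1106 in replicates 1 and 2. Of those sums TDGF1, which endoderm also uses, was 625, 157 and 419 CPM. POU5F1 was at 189 CPM in replicate 4 against 25.4 and 22.8 in replicates 1 and 2, and NANOG at 79.6 against 12.5 and 38.5. All of these markers were highest in replicate 4 except L1TD1, highest in replicate 2, and USP44, highest in replicate 1. The part of these library differences in the lower position of replicate 4 was not tested. Since days 1 and 2 were chosen low, the shares of members above their libraries are read as a description.

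**Figure D4:**
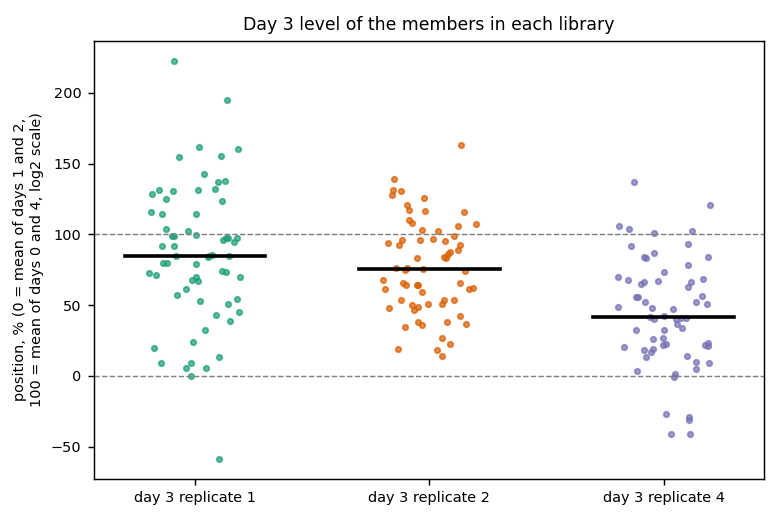
Position of each of the 65 members in each day 3 library, in percent of the distance on the log2(CPM + 0.5) scale from the mean of days 1 and 2 (0) to the mean of days 0 and 4 (100). Points are members and black bars the library medians, 85.0%, 75.8% and 41.8%. Replicate 4 is the lowest of the 3 libraries.

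Day 2 was chosen to be low, which largely fixes the direction of any difference from day 3, so the counts and values of that comparison are a description and no p-value is given. In edgeR's quasi-likelihood fit 15 of the 65 members were called higher on day 3 than on day 2 and 0 lower. CLDN3, the tight junction claudin, had a log2 fold change of 3.87. MAP6, GPRC5C and A2ML1 followed at 3.36, 3.26 and 3.21, then SLC27A2 at 3.17 and SLC24A2 at 3.03. GPRC5C was at 2.53, 2.95 and 5.48 CPM on day 2 and 51.5, 17.5 and 35.3 CPM on day 3, with no overlap. The others were FAM65B at 2.80, EPAS1 at 2.74, ADM at 2.67, the sodium pump subunit ATP1B2 at 2.33, PODXL at 2.25, the proline-degrading enzyme PRODH at 2.17, the glycan-branching enzyme GCNT2 at 1.78, the nucleoside transporter SLC29A1 at 1.66 and TCF7L1 at 1.19. Of all 17401 genes tested, 0.661% were called higher and 0.287% lower. The median log2 fold change was 1.66 over the members and 0.01 over all genes, and 64 of 65 members had a fold change above 0. Libraries of the 2 days did not overlap in 46 members, all higher on day 3, against 8.53% of genes at the minimum level with day 3 higher and 9.12% with day 3 lower. With the replicate number as a block, 30 members were called higher (2.13% of all genes), and in DESeq2 40 were (3.7%). Left-out libraries moved the count: it was 0 without day 2 replicate 1 or replicate 2, 3 without day 3 replicate 1, and 0 (0.0% of all genes) with only the libraries of these days in the fit.

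Between day 1 and day 2, both low by choice, 6 members rose and 0 fell, against 4.93% and 3.34% of all genes. SFRP1 rose by 3.78 (SE 0.51, adjusted p = 0.000324) and TCF7L1 by 2.42 (SE 0.27, adjusted p = 6.81e-05). The others were TMEM132B at 2.21, SLC27A2 at 2.08, PODXL at 1.89 and ERRFI1 at 1.40. The median over the members was 0.21, against -0.00 over all genes, and the lowest mean fell on day 1 in 35 members and on day 2 in 30. The log2 fold change was above 0 in 36 members, against 49.8% of all genes. The split of lowest days is one of means only, and edgeR called no member lower on day 2. Whether the members shared a single low point was thus not settled. Libraries did not overlap in 20 members with day 2 higher (15.4% of genes at the minimum level) and in 8 with day 1 higher (19.9%). SFRP1 and TCF7L1 passed in every alternative tried. The block gave 11 rises (7.46% of all genes), DESeq2 15 rises and 2 falls (7.74% and 5.82%), and a fit of these days alone 10 and 3 (9.4% and 8.16%). The count was 2 or 3 when any day 1 library or day 2 replicate 1 or 2 was left out and 10 without day 2 replicate 4.

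Day 4 did not return every member to its day 0 level. On day 4, 4 members were higher than on day 0 and 10 were lower, against 18.0% and 16.2% of all genes. Neither share exceeded the background, but the rule's floor under both days shaped these shares, so they are a description. IGFBP5 rose by 4.59 (SE 0.92, adjusted p = 0.00154), with its 3 day 4 libraries far apart but all above day 0. GPRC5C rose by 1.84 (SE 0.41, adjusted p = 0.00327), from 7.36, 7.49 and 16.9 CPM on day 0 to 34.7, 40.2 and 43.3 CPM on day 4. PODXL rose by 1.24. The count of higher members was 2 without day 4 replicate 1 or any single day 0 library. The largest drop was that of LRAT, -3.32 (SE 0.97, adjusted p = 0.0153). KLHDC7A followed at -2.51, PPP2R2B at -2.41, SORBS2 at -2.08, FAM65B at -1.98, CACNG8 at -1.80, PCDH1 at -1.75, ITGA6 at -1.71, the actin nucleator COBL at -1.58 and SLC29A1 at -1.36. LRAT lost its call without day 0 replicate 1 (adjusted p 0.0584) or day 4 replicate 2 (0.0637), SORBS2 without day 0 replicate 1 (0.0515) or day 4 replicate 2 (0.0504), COBL without day 4 replicate 2 (0.0511), SLC29A1 without day 0 replicate 4 (0.055), and PODXL without any 1 of the day 0 libraries or of day 4 replicates 1 and 2 (up to 0.115). The libraries of the 2 days did not overlap in 5 members with day 4 higher (18.2% of genes at the minimum level) and in 11 with day 0 higher (16.8%). The median over the members was -0.05, against -0.02 over all genes, and 0.04 with library totals alone.

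**Figure D5:**
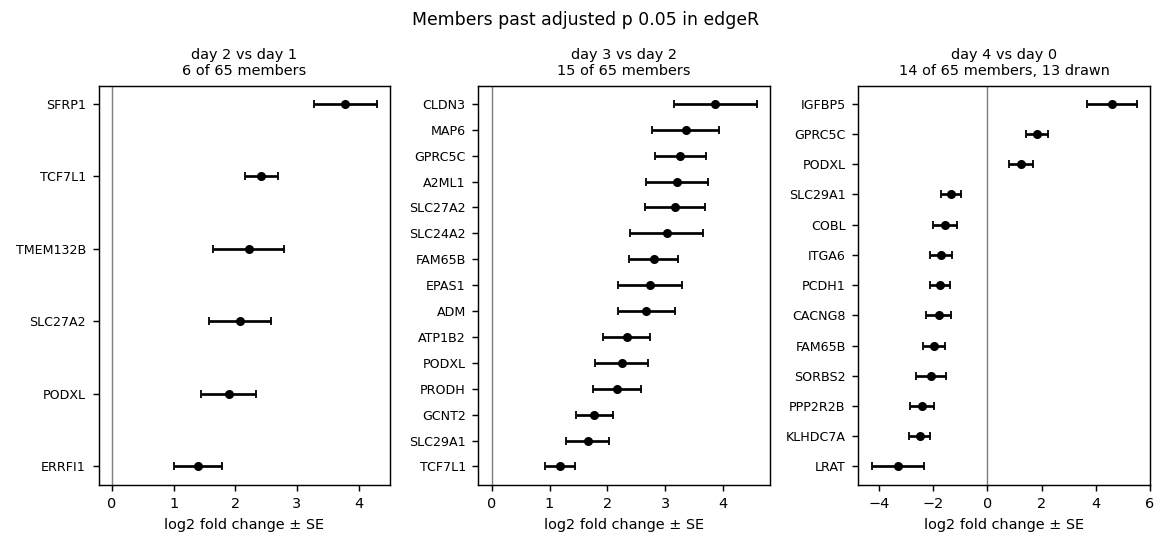
Log2 fold change with its standard error (points and bars) of the members past an adjusted p of 0.05 in edgeR's quasi-likelihood test, for day 2 against day 1 (6 members), day 3 against day 2 (15) and day 4 against day 0 (13 of 14 drawn). Day 2 was chosen to be low, so the direction of the 15 was largely fixed. All values between consecutive days lie above 0, while 10 of those between day 0 and day 4 are drops.

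From day 3 to day 4 no member passed in edgeR, and neither did any of the 17401 genes (0.0% in each direction). At an unadjusted p under 0.05, 13 members passed, all higher on day 4, against 2.90% of all genes higher and 3.28% lower. DESeq2 called 3 members higher (0.164%). Day 4 was chosen to be high, so these too are descriptions. Among the 13, KLHDC7A had a log2 fold change of 1.56 and CNTN1 one of 2.06. Libraries did not overlap in 9 members, all higher on day 4 (5.74% of genes at the minimum level). The median over the members was 0.45, against 0.01 over all genes.

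Late levels often rested on a single library. On day 4, replicate 1 was at least 2 times both other libraries in 20 of 65 members (30.8%), against 9.39% of genes at the minimum level. Replicate 2 was so in 5 members (7.69%, against 0.844%) and replicate 4 in 0 (0.806% of genes). The rule used the day 4 mean, so a single high library could help a gene past it, and these shares are a description. Without day 4 replicate 1 the rule found 64 genes, 52 of them among the 65 members. CCBE1 in replicate 1 was 8.15 times the next library and the lipid phosphatase PPAP2B 8.06 times, at 232 CPM in replicate 1, 19.9 in replicate 2 and 28.8 in replicate 4 on day 4. In replicate 2 IGFBP5 was 4.89 times the next library, TMEM132B 4.08 times, PAPLN 3.85 times and SOX21 2.78 times. On day 3, 40 members (61.5%) were highest in replicate 1, against 34.6% of genes at the minimum level, and 6 (9.23%) in replicate 4, against 34.6%. Replicate 1 was also the late library with the lowest definitive endoderm sum, most of that gap being CER1, and the highest GATA3 level, and replicate 2 the one with the highest neural marker sum. Their part in these levels was not tested.

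Genes listed with the members by pathway are given by their counts and a few log2 fold changes. Of 30 measured genes of epithelial adhesion and junctions, 10 fell and 0 rose between day 1 and day 2, among them CDH1 (E-cadherin) at -3.14 and EPCAM at -2.17. From day 2 to day 3 CLDN3, INADL (1.5) and PKP2 (1.88) were called higher. On day 4, 9 of the 30 were below and 3 above day 0, with CDH1 at -3.52 and EPCAM at -1.43. Of 25 tested epithelial regulators and proteases, 6 fell from day 1 to day 2, ELF3 (2.42) rose from day 2 to day 3, and on day 4 GRHL2, a regulator of epithelial junction genes, stood at -4.46 against day 0. TMPRSS2, the member in that list, was not called in any of the 4 comparisons. Of 28 genes of hypoxia and glycolysis, ADM, VEGFA (2.38) and SLC2A3 (1.64) rose from day 2 to day 3 and CA12 (-2.30) fell, and 11 were above and 1 below day 0 on day 4.

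Of 37 tested Nodal, BMP and Wnt ligands, antagonists and receptors, 9 rose and 7 fell from day 1 to day 2. The risers included SFRP1 and FZD8 (3.03), and the Wnt targets AXIN2 (-2.52), NKD1 (-2.82) and DKK1 (-4.95) were among those that fell. On day 4, 23 of the 37 were above day 0 and 2 below, namely SFRP2 (-3.49) and WIF1 (-5.21). Of 21 tested cilia genes, 0 passed from day 2 to day 3 (FOXJ1 and C1orf88 included), and on day 4, 6 were above and 2 below day 0. Of 30 basement membrane and integrin genes, 0 passed from day 2 to day 3, and on day 4, 11 were above and 3 below day 0. ITGA6 was among those below, with ITGA1 (-1.17) and ITGA2 (-2.16). Of 30 tested neural and surface ectoderm genes, which hold FOXJ1 and SOX21, 0 passed from day 2 to day 3, and on day 4, 7 were above and 7 below day 0. Of 21 genes of mesenchymal transition, which hold S100A4, 3 rose from day 1 to day 2 and 15 were above and 0 below day 0 on day 4. Of 40 axon guidance genes, which hold SEMA4A, 13 rose and 1 fell from day 1 to day 2, and 21 were above and 4 below day 0 on day 4. Of 37 synapse, adhesion and channel genes, which hold CNTN1 and PCDH1, 5 rose and 3 fell from day 1 to day 2, and 8 were above and 10 below day 0 on day 4. These lists were written with earlier results of these data known, and their counts are descriptions beside the background shares given above.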

How the data were processed

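PolyA RNA of 15 libraries (3 for each of 5 days) was read. The build named is hg19 and the tool TopHat2 2.0.14, per the submitters' processing notes. How genes were counted (program, annotation, strand) is not given in the sources used here. Overlapping and antisense genes therefore have uncertain levels. The authors deposited whole-number counts per gene symbol, with no normalization, and no count was odd. Of 23398 entries 52 repeated a symbol: 44 identical ones were dropped and 8 summed. CPM used the deposited column totals.

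Tests used edgeR 4.0.16 (quasi-likelihood F-test, TMM, filterByExpr by day, R 4.3.3) on all 15 libraries, with a mean per day and Benjamini-Hochberg adjustment over 17401 genes, called at 0.05. The SE was the absolute log2 fold change over the square root of F. The biological coefficient of variation was 45.6%. Alternatives were other scalings, filters, a replicate block, only the days compared, halved counts, left-out libraries and DESeq2 1.42.0. Tested on simulated data with 17401 genes, edgeR recovered 4% of 2-fold and 42% of 4-fold changes for day 2 against day 1, 2% and 42% for day 3 against day 2, 2% and 35% for day 4 against day 3, and 1% and 38% for day 4 against day 0. 

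Same-numbered libraries deviated together in every pair for day 3 against day 2 (correlations of deviations over 13488 genes 0.42, 0.60 and 0.78). They also did for day 4 against day 3 (0.78, 0.20 and 0.72). The numbers may thus pair these days, which rests on the values, not on the labels. Deviations from a mean of 3 libraries sum to 0, so the 3 correlations are not independent. The fit reported has no block and ignores any such pairing, and the replicate block is an alternative.

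The members, the gene lists and the roles were chosen with earlier results of these data known. Genes were named if they were in a list, among the 15 largest ratios, among up to 6 largest called changes in each direction of a comparison, among the 6 highest levels or within 3 of the threshold. The other genes named were chosen after their values were seen. A single member is counted throughout but not reported here by name.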

Additional observations from a re-analysis of the deposited data

How the results depend on the processing

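The rule found 32 genes at a 3-fold threshold, 28 at a minimum of 10 CPM, 106 without the separation of libraries, and 61 to 100 with a library or a replicate number left out. Between day 1 and day 2, 6 members rose in the fit reported and 11 with the replicate block, 10 with only the libraries of the days compared, 15 with DESeq2 and 2 to 10 with a library left out. No member fell there, but 3 did with only the days compared and 2 with DESeq2. Between day 2 and day 3, 15 were called higher, against 30 with the replicate block, 0 with only the days compared, 40 with DESeq2 and 0 to 22 with a library left out. DESeq2 called 3 members higher on day 4 than on day 3, where edgeR called 0. On day 4 against day 0 the left-out fits gave 2 to 5 members higher and 7 to 10 lower. The cause of these changes was not tested. Same-numbered libraries did not deviate together in every pair for day 2 against day 1 (-0.22, 0.62 and 0.35). Nor did they for day 4 against day 0 (0.22, -0.34 and 0.56). The block is an alternative fit in every comparison.

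Over 35 called changes and their alternatives, 490 comparisons in all, 388 kept the call, 102 lost it and 0 reversed. Of the 35, 15 were between day 2 and day 3, where the choice of members largely fixed the direction. All alternatives reuse the same libraries, so these counts describe the processing only. SFRP1 and TCF7L1 (day 2 against day 1) and CACNG8, FAM65B, GPRC5C, IGFBP5, ITGA6, KLHDC7A, PCDH1 and PPP2R2B (day 4 against day 0) kept theirs in every alternative, and no call between day 2 and day 3 did. Where an arm was left with 2 libraries, the fit shared its spread with the other days. With 3 libraries a day, edgeR missed most 2-fold changes in simulated data, so a member that did not pass is not shown to be unchanged.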

Other observations

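GRB7, an adaptor of receptor tyrosine kinases, was the 66th gene when column totals were taken after identical repeated entries had been dropped, an alternative added after seeing the data. Its lowest day 4 library and its highest day 2 library, at 8.63 and 8.64 CPM, are ordered by the choice of total alone. The 63 members matched to GENCODE 29 had a median longest transcript of 4573 bases and a median transcript GC of 49.2%, beside 3938 bases and 47.5% for genes with at least 3 CPM on days 0 and 4.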
